A study of Mus musculus with 4 samples.

Results

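The dystrophin-associated complex is a set of membrane and cytoplasmic proteins that tie the cytoskeleton of a muscle fibre to the basement membrane around it. H3K27ac was followed at 8 autosomal genes of this complex, chosen by gene symbol: Utrn, Dag1, Sgca, Sgcb, Sgcd, Sspn, Sntb1 and Dtna. All 8 were found among the 21755 protein-coding genes of the 19 autosomes and X. H3K27ac, the acetylation of lysine 27 of histone H3, marks active promoters and enhancers, and it was measured by sequencing immunoprecipitated chromatin of the gastrocnemius, the main muscle of the calf. The animals formed 1 group: adult females aged 2 months of B6CASTF1/J, a hybrid of the B6 and CAST strains, with no treatment or engineered allele named in the labels. There were 2 biological replicates, each a pool of 2 tissue samples, and each had 2 technical libraries, 4 libraries in all. The technical libraries of a replicate had been merged into 1 alignment and count as 1 sample. No groups of animals were compared, so the spread was read from the peak lists of the single replicates.

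Dystrophin holds actin inside the fibre and binds dystroglycan in the membrane. Dystroglycan carries a sugar chain that binds laminin outside, the sarcoglycans and sarcospan stabilise dystroglycan in the membrane, and syntrophins and dystrobrevins bring signalling proteins to the complex. Loss of single components causes forms of muscular dystrophy, and utrophin, an autosomal relative of dystrophin, can take its place at the membrane. Several of these genes are transcribed from more than 1 promoter, so acetylation was read at each annotated start.

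The replicated list, drawn by the authors from both replicates, held 84452 acetylated regions over 118.0 Mb of the genome. The list of replicate 1 held 70953 regions over 85.1 Mb, and that of replicate 2 held 86937 over 117.8 Mb. Read depth is unknown, because the lists hold no counts. Of the marker genes set down for fast fibres, 6 of 6 had a region within 1 kb of a start in the replicated list, with a median signal value of 37.8. Those for slow fibres had one in 4 of 4 (3 and 4 in replicates 1 and 2), with a median of 3.76. Some markers of other cells that muscle holds also had such a region in the replicated list. These were 4 of 4 for endothelium, 4 of 4 for smooth muscle and pericytes and 4 of 4 for fibroblasts. They were 3 of 4 for Schwann cells (2 in replicate 1), 2 of 4 for macrophages (1 in replicate 2) and 2 of 3 for satellite cells. Among all protein-coding genes 61.2% had one (58.9% and 61.2% in replicates 1 and 2), which is near the macrophage and satellite cell counts. The macrophage marker Cd68 had a signal value of 42.7 in the replicated list, 3.4 in replicate 1 and no region within 1 kb in replicate 2. No marker had a region within 1 kb in the replicated list among the 5 of cardiac muscle, the 3 of neurons, the 3 of adipocytes and the 3 of liver, a tissue not sampled. In whole tissue a region carried by few cells and a region weakly acetylated in many cells cannot be told apart.

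Starts were taken from the GENCODE basic transcripts, and starts of a gene at most 500 bp apart were joined into 1 start cluster, numbered from the 5′ end. A cluster was called where a region lay within 1 kb of it, and the leading start of a gene was the cluster whose region had the highest signal value in the list. The signal value is the authors' own measure of peak strength and was compared only within a list. Sets of 3 values are given in the order replicated list, replicate 1, replicate 2.

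Start sequences are given for the 4 members with more than 1 start cluster in the basic set. Within that set, only these genes pose the question of which start was acetylated. Starts 3 and 4 of Utrn and start 3 of Sspn, which had a weak region or none, are not shown. Not every start shown was marked: Utrn start 2 had a weak region, and start 1 of Sgcd and start 1 of Sspn had none within 1 kb. Each sequence runs 5′ to 3′ along the gene, from 250 bases before the start through 50 bases from the start on, in the GRCm38 (mm10) reference as RefSeq gives it. The animals were hybrids, and the allele of the other parent is not shown. Capitals mark every match, on either strand, of 8 motifs: the E-box (CANNTG) bound by myogenic factors, the N-box (CCGGAA) of synaptic genes, the GC box (GGGCGG) of housekeeping promoters, the TATA box, searched with the letters TATAAA, the TEAD motif (GGAATG) of muscle genes, the site of GATA factors, searched with the letters AGATAA, the MEF2 motif and the CArG box. E-boxes can overlap each other, as they do at Utrn start 2.
Utrn start 1 (chr10:12869316-12869615, minus strand): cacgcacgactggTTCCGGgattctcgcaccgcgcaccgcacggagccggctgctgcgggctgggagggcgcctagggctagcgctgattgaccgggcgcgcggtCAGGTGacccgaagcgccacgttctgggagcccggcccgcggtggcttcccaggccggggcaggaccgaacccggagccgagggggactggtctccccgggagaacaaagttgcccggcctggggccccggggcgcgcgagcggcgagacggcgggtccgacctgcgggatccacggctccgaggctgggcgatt
Utrn start 2 (chr10:12861686-12861985, minus strand): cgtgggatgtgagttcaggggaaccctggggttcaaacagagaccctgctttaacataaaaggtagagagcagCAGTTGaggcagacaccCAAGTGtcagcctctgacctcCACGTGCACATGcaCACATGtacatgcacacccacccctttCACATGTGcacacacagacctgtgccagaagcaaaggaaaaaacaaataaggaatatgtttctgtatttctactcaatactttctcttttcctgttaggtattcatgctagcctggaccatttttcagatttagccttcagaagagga
Utrn inner start (chr10:12813566-12813865, minus strand): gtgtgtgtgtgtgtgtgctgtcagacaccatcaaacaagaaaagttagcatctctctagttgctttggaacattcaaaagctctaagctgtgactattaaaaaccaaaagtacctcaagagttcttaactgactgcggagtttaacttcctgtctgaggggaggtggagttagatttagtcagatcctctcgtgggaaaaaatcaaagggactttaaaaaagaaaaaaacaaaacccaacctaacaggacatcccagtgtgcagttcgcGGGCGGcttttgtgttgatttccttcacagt
Sgca start 1 (chr11:94976278-94976577, minus strand): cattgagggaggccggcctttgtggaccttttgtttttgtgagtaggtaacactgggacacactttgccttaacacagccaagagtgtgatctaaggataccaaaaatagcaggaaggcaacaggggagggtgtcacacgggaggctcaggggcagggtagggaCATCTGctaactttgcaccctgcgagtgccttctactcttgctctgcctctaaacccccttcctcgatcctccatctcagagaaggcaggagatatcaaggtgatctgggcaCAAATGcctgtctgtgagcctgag
Sgca start 2 (chr11:94973414-94973713, minus strand): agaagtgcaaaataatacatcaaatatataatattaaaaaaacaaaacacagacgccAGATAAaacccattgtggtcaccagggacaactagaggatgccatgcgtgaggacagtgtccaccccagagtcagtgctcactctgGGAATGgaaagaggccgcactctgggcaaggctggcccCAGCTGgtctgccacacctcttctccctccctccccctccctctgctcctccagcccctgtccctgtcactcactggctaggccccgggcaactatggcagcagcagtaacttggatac
Sgcd start 1 (chr11:47578916-47579215, minus strand): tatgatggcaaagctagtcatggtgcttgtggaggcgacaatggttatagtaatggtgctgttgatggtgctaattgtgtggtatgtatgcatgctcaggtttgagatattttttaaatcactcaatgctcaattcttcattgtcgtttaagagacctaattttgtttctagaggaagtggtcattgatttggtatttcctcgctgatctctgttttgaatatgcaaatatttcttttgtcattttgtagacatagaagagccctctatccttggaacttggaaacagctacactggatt
Sgcd start 2 (chr11:47379473-47379772, minus strand): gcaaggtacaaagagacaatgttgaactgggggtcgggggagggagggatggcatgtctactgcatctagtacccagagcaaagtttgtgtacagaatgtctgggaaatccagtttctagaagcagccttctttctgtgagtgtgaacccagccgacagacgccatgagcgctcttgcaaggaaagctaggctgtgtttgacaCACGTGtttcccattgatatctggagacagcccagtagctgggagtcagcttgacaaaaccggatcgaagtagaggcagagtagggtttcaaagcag
Sspn start 1 (chr6:145931391-145931690, plus strand): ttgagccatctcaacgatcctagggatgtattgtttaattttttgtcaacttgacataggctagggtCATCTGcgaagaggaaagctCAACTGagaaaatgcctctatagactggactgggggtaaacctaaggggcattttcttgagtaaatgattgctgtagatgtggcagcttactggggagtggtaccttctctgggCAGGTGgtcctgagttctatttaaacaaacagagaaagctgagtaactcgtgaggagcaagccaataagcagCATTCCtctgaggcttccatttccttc
Sspn start 2 (chr6:145933872-145934171, plus strand): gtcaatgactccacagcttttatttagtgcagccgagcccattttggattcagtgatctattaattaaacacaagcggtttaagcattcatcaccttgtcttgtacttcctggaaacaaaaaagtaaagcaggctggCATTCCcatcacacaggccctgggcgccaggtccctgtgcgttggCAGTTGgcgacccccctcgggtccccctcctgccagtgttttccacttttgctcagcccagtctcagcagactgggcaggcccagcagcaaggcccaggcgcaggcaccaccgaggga
Among the windows of all 28326 start clusters, 70.5% held an E-box, 39.9% a GC box, 15.8% an N-box, 13.8% the TEAD motif, 13.7% a TATA box, 11.1% the GATA motif, 1.53% a CArG box and 0.54% the MEF2 motif. Among the 15600 called clusters these shares were, in the same order, 64.2%, 59.3%, 24.4%, 12.4%, 7.53%, 6.6%, 1.42% and 0.577%. GC boxes and N-boxes were thus more frequent at called clusters. A match describes these letters and shows no bound factor.

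All 8 members had a region within 1 kb of a start in the replicated list, against 61.2% of all protein-coding genes. They had one in both single-replicate lists as well, where the share of all genes was 58.9% in replicate 1 and 61.2% in replicate 2. Of genes called in the replicated list, 95.8% were called in both replicates. Of the members' 15 start clusters, 11 were called in the replicated list, against 55.1% of all clusters. Replicate 1 called 9 of them, against 52.5% of all clusters, and replicate 2 called 11, against 55.0%. The leading start was the same cluster in the replicated list and in both replicates for Utrn, Sgcd and Sspn. With basic starts the other members could not differ: Dag1, Sgcb, Sntb1 and Dtna have 1 cluster each, and in Sgca 1 region covered both clusters.

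**Figure D1:**
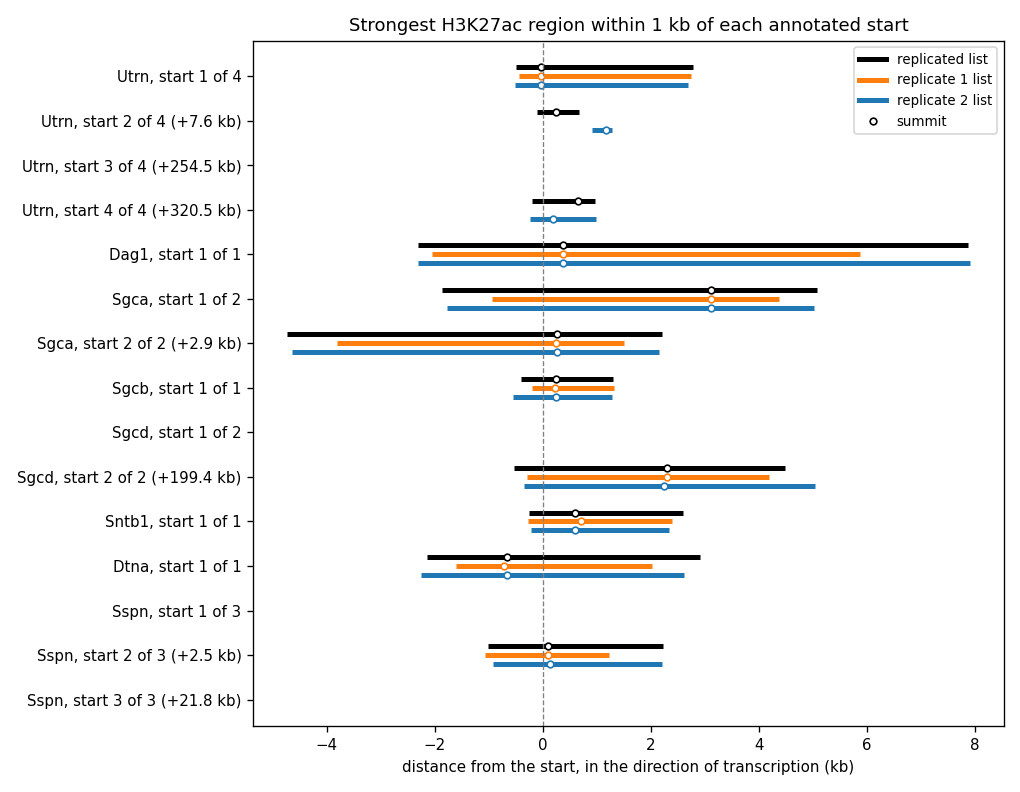
The strongest H3K27ac region within 1 kb of each of the 15 start clusters, as a horizontal bar from its upstream to its downstream end in kb from the start, with the summit as an open circle, for the replicated list and the lists of replicates 1 and 2. Start 3 of Utrn, start 1 of Sgcd and starts 1 and 3 of Sspn carry no bar. The leading starts carry 3 bars, and that of replicate 1 is shorter than that of the replicated list. Starts 2 and 4 of Utrn carry short bars that replicate 1 lacks.

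The plot of the regions at each start shows where alternative starts of a gene parted. Of the 4 members with several clusters, 3 (Utrn, Sgcd and Sspn) had some but not all clusters called, in all 3 lists. The same held for 48.0% of all genes with several clusters and a called start in the replicated list (51.5% and 47.9% in replicates 1 and 2). The most 5′ cluster had no region in 2 members, Sgcd and Sspn, in all 3 lists. Among all such genes this was so for 11.4% in the replicated list (12.4% and 11.5% in replicates 1 and 2). The leading start was the most 5′ cluster in Utrn and, sharing its region with start 2, in Sgca, which makes 2 of 4, against 78.5% in the replicated list (78.0% and 78.5% in replicates 1 and 2). With 4 genes these shares are a description.

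Utrn, which encodes utrophin (ENSMUSG00000019820.11, chromosome 10, 12382188 to 12869365, minus strand), led with its most 5′ start. The region there (12866592 to 12869860) had a signal value of 33.5 in the replicated list (27.1 and 32.9 in replicates 1 and 2). It was stronger than 94.2%, 93.3% and 93.6% of all regions of these lists. Among genes with a called start it ranked above only 63.1%, 62.8% and 59.1%. Its summit lay at -28, -28 and -25 bp from the start. The window at start 1 held 41 CpG dinucleotides, against a median of 9 over all start clusters and 19 over called ones, with an N-box at position -237 and an E-box at -145 from the start. An N-box is known from genes active at the neuromuscular junction, where utrophin is concentrated in adult muscle.

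Start 2 of Utrn, 7630 bp farther downstream, was barely marked. Its region had a signal value of 3.33 in the replicated list, and none was called in replicate 1. Replicate 2 had a pair of short regions, one of 3.18 over the start and one of 3.2 whose nearest base lay 909 bp downstream of it. Only 21.5% of the regions of the replicated list were weaker. Its window held 2 CpG and 7 E-boxes. The curated RefSeq transcript of Utrn begins at this start, while RefSeq's transcripts within the strong region are predicted models.

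The other annotated starts of Utrn were weak or bare. Start 4, 320486 bp downstream of start 1, had a signal value of 3.24 in the replicated list and 4.3 in replicate 2, and none was called in replicate 1. Start 3, 254534 bp downstream, had no region in any list. The second strongest region of the gene lay at a start outside the basic set. This inner start, 55750 bp downstream of start 1, belongs to transcripts of the comprehensive GENCODE set, added after the data were seen. The region over it (12810960 to 12814628) had a signal value of 17.2 in the replicated list (14.6 and 16.8 in replicates 1 and 2). Its window held 5 CpG and a GC box 19 bases into the transcript. Utrophin is known to have a second full-length promoter inside its gene, called promoter B, and whether the inner start is that promoter was not examined.

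Several of the stronger regions of the Utrn body lay near the inner start. The body had 39 regions in the replicated list (24 and 41 in replicates 1 and 2), over 8.82%, 5.16% and 7.95% of its length. Protein-coding genes of at least 100 kb had a median of 6, 4 and 6 regions over 3.11%, 1.87% and 3.21% in the same lists. Counts are not adjusted for length, and Utrn spans 487.2 kb. Per 100 kb it had 8.01, 4.93 and 8.42 regions, against 7.39, 6.65 and 10.72 in Sntb1 and 8.99, 6.13 and 9.4 in Dtna. By covered share the Utrn body ranked above 62.9%, 59.3% and 61.1% of all protein-coding genes. Away from the basic starts the Utrn body had 36 regions in the replicated list. Of these, 13 were shared with both replicates, 4 with replicate 1 alone, 15 with replicate 2 alone and 4 with neither. Over Utrn and 50 kb to each side 39.5% of the regions were shared with both replicates, against 63.3% of all regions of the list. Next to the region at the inner start in signal value were regions 18.9, 48.1 and 53.0 kb downstream of start 1, all upstream of the inner start. They had signal values of 8.94, 7.85 and 7.75, and all were shared with both replicates. The first was nearer to start 1 than to the inner start.

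Dag1, which encodes the precursor of both dystroglycan subunits (ENSMUSG00000039952.15, chromosome 9, 108204634 to 108263958, minus strand), had 1 start cluster and the strongest start of the 8 genes. The region over it (108256100 to 108266264) was 10165 bp wide in the replicated list (7928 bp and 10204 bp in replicates 1 and 2). Its signal value was 54.9, 46.2 and 52.8 in those lists, above that of 95.7%, 95.8% and 94.5% of genes with a called start. It reached 2306 bp upstream and 7858 bp downstream in the replicated list. The window at this start held 30 CpG and 3 GC boxes.

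The body of Dag1 was covered for 65.5% of its length in the replicated list (44.5% and 64.9% in replicates 1 and 2). Over all protein-coding genes the median was 4.25%, 2.91% and 4.28%. A second strong region of 6030 bp (108217530 to 108223559), overlapping an exon 43.7 kb downstream of the start, had a signal value of 25.4 in the replicated list (19.5 and 34.2 in replicates 1 and 2). The flank upstream of Dag1 held the starts of other genes, with a signal value of 66.6 at the shared region of Rhoa and Tcta and of 23.7 at Nicn1.

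The 3 sarcoglycan members are membrane proteins whose loss causes limb-girdle muscular dystrophy, and their starts were marked in different ways. Sgca, the α-sarcoglycan gene of striated muscle (ENSMUSG00000001508.15, chromosome 11, 94962791 to 94976327, minus strand), had 2 start clusters 2864 bp apart under 1 region. That region (94971261 to 94978191) had a signal value of 41.0 in the replicated list (31.7 and 43.2 in replicates 1 and 2). Its summit lay 256, 248 and 256 bp downstream of start 2, and 3120, 3112 and 3120 bp downstream of start 1. The region thus covered both starts in each list, with its summit by start 2. The windows at both starts held 4 CpG each, and that of start 2 held a TEAD and a GATA match that start 1 lacked. With start 1 as its reference point Sgca reached 5066 bp downstream and 1864 bp upstream, and with start 2 it reached 2202 bp downstream and 4728 bp upstream.

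The 13.5 kb of Sgca were flanked by dense acetylation. The body was covered for 40.8% in the replicated list (32.2% and 40.5% in replicates 1 and 2). Its window of gene and 50 kb to each side held 23, 22 and 22 regions, of which 17, 16 and 16 lay in the flanks away from any start. The nearest, at -2.9 kb from start 1, had a signal value of 22.3 in the replicated list (15.6 and 24.4 in replicates 1 and 2). The same window held the starts of Col1a1, a collagen gene of fibroblasts with a signal value of 22.6, of Ppp1r9b with 29.6 and of Samd14 with 6.44 in the replicated list. Which gene a flanking region serves was not measured.

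Sgcb, the β-sarcoglycan gene (ENSMUSG00000029156.11, chromosome 5, 73632749 to 73647790, minus strand), had a strong and narrow region at its single start and nearly nothing else. The region (73646489 to 73648186) had a signal value of 51.8 in the replicated list (42.9 and 50.6 in replicates 1 and 2). Among genes with a called start it ranked above 93.1%, 93.1% and 92.1%, second to Dag1 among the members in each list. The width was 1698, 1515 and 1822 bp, the narrowest of the 8 leading regions in every list. In the replicated list 2 more regions lay in an intron, with signal values of 3.06 and 2.24, and neither was shared with a replicate. The single-replicate lists had 1 region each in the gene and 50 kb to each side.

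Sgcd, the δ-sarcoglycan gene (ENSMUSG00000020354.15, chromosome 11, 46896253 to 47988969, minus strand), was marked at its inner start and not at the outer one. Start 2 lies 199443 bp downstream of start 1. Its region (47375037 to 47380064) had a signal value of 30.6 in the replicated list (22.0 and 34.7 in replicates 1 and 2). Start 1 had no region within 5 kb in any list. Its window held 3 CpG and no match of the 8 motifs, and that of start 2 held 7 CpG and the E-box CACGTG at position -47. The region at start 2 reached 4485 bp downstream, and its summit lay 2290 bp downstream of the start in the replicated list (2291 bp and 2248 bp in replicates 1 and 2). With the summit itself required within 1 kb of a start, Sgcd was no longer called and 7 of 8 members were.

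The rest of Sgcd was sparsely acetylated. Over 1092.7 kb its body held 7 regions in the replicated list (5 and 6 in replicates 1 and 2), which covered 1.35%, 0.957% and 1.45% of it. For genes of at least 100 kb the median was 3.11%, 1.87% and 3.21%. All of them lay at or downstream of start 2. A region 129.2 kb downstream of the start had a signal value of 9.69, 7.81 and 10.6. Another, 7367 bp downstream, had 9.27, 5.45 and 12.1, so it was the weaker one in the replicated list and in replicate 1 and the stronger one in replicate 2. Neither start farther upstream in the comprehensive set, at -257947 and -609447 bp from start 2, had a region in any list.

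Sspn, which encodes sarcospan, a small protein of the membrane that binds the sarcoglycans (ENSMUSG00000030255.13, chromosome 6, 145931641 to 145965223, plus strand), was marked at the middle of its 3 starts. The region at start 2 (145933103 to 145936346) had a signal value of 34.5 in the replicated list (26.3 and 44.1 in replicates 1 and 2). Its summit lay 99, 96 and 125 bp downstream of the start. Start 1, 2481 bp upstream, had no region within 1 kb in any list, and it fell within reach of the same region when the window was 2000 bp. Start 3, 19307 bp downstream of start 2, had none within 1 kb. The windows at starts 1 and 2 held 3 and 8 CpG, 3 E-boxes and 1 E-box, and a TEAD match each.

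Inside Sspn the strongest other region lay 24.4 kb downstream of start 2, with a signal value of 9.21 in the replicated list (8.82 and 10.9 in replicates 1 and 2). A stronger one lay past the end of the gene, 34.7 kb downstream of the start, with 17.8, 13.5 and 18.8. All 12 flanking regions of the replicated list lay downstream of the gene, and the map of each locus shows the same side for both replicates.

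**Figure D2:**
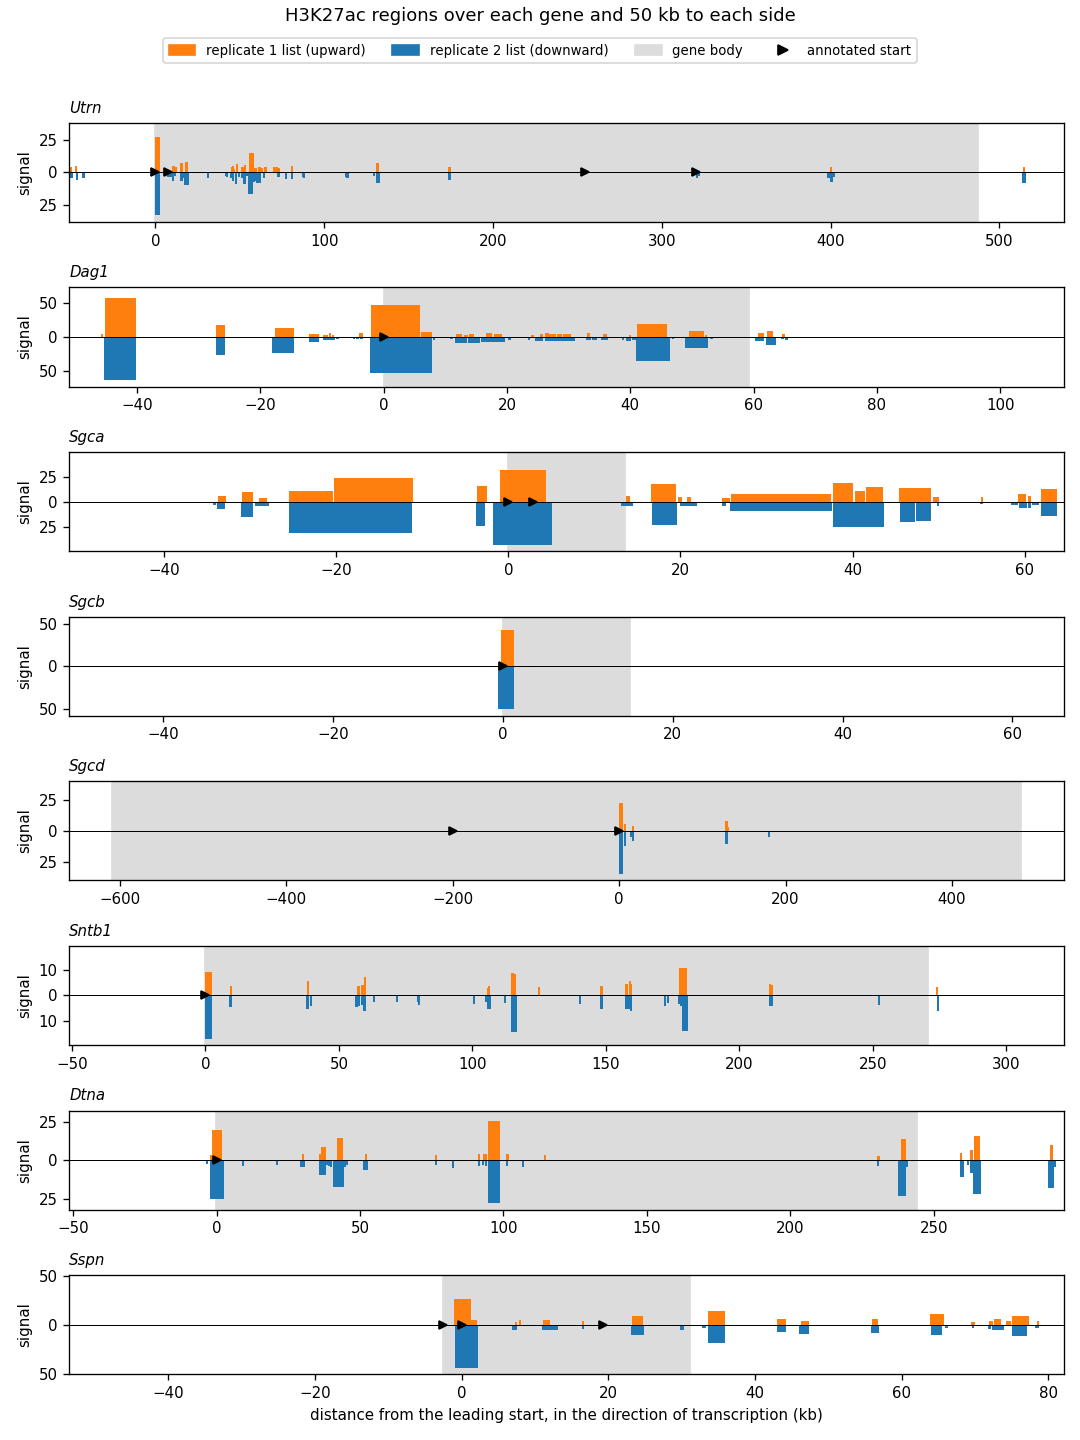
H3K27ac regions over each of the 8 genes and 50 kb to each side, as bars at their distance in kb from the leading start along the direction of transcription. Bar height is the signal value, upward for replicate 1 and downward for replicate 2; grey marks the gene body, triangles the annotated starts, and narrow regions are drawn at a minimum width. Sgcd is bare upstream of its leading start, Sgcb has 1 bar in each list, and the bar 96.2 kb into Dtna is taller than that at its start in both replicates.

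The syntrophin and dystrobrevin members had the weakest starts of the 8 genes, and their strongest intronic regions were near or above the start in signal value. Sntb1 encodes β1-syntrophin, an adaptor that brings signalling proteins to the complex (ENSMUSG00000060429.12, chromosome 15, 55636388 to 55906949, minus strand). The region at its single start (55904352 to 55907210) had a signal value of 13.8 in the replicated list (9.23 and 17.0 in replicates 1 and 2), the lowest of the members in each list. Of genes with a called start, 22.7%, 15.9% and 26.3% had a lower value. An intronic region 179.6 kb downstream had 13.4, 10.9 and 13.9, so it was below the start in the replicated list and in replicate 2 and above it in replicate 1. Another, 115.2 kb downstream and overlapping an exon, had 12.5, 8.79 and 14.3. The strongest region in the Sntb1 body away from the start was weaker than those of Utrn and Dag1 in each list. Of the 19 regions in the body away from the start, 14 were shared with both replicates. Over Sntb1 and 50 kb to each side this share was 76.2%, against 63.3% of all regions of the list.

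Dtna encodes α-dystrobrevin, which binds dystrophin and the syntrophins (ENSMUSG00000024302.16, chromosome 18, 23415135 to 23659715, plus strand), and its strongest region was not at its start. The region at the start (23413307 to 23418348) had a signal value of 22.5 in the replicated list (19.2 and 25.2 in replicates 1 and 2). An intronic region of 4262 bp, 96.2 kb downstream (23509981 to 23514242), had 29.6, 25.1 and 28.0 and exceeded the start in all 3 lists. An intronic region 239.3 kb downstream had 19.7, 13.6 and 23.3, and another 43.0 kb downstream had 19.5, 14.6 and 17.7. The summit of the region at the start lay upstream, at -661, -711 and -657 bp.

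Dtna has further starts in RefSeq, which were added after the data were seen. The most 5′ of them, at -105436 bp from the leading start, had no region within 1 kb in any list. A predicted transcript starts beside the intronic region 43.0 kb downstream, within 1 kb of it in the replicated list and in replicate 2 and not in replicate 1. A start of curated transcripts 82.0 kb downstream had a region of 3.87 in the replicated list and 5.15 in replicate 2, and none in replicate 1.

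In the body of a gene, the start usually held the strongest region. This was so for 7 of the 8 members in the replicated list, against 83.3% of genes with a called start and a region in the body away from starts. In replicate 1 it was so for 4 of the 6 members with such a region, against 83.9%, the exceptions being Dtna and Sntb1. In replicate 2 it was so for 6 of 7, against 82.9%, the exception being Dtna. The counts of members without such a region differ because the body of Sgcb held none in either replicate and that of Sgca none in replicate 1.

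**Figure D3:**
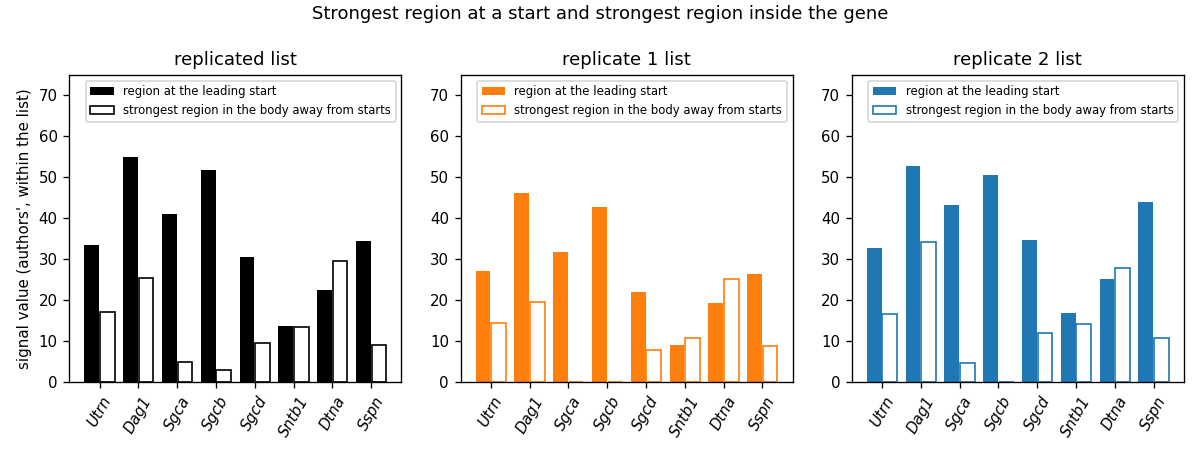
Signal value of the region at the leading start (filled bars) and of the strongest region in the gene body away from the starts (open bars) for each of the 8 genes, in the replicated list and in the lists of replicates 1 and 2. The open bar is the taller one for Dtna in all 3 lists and for Sntb1 in replicate 1; no open bar means that the body held no such region.

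By the signal value of the leading start, Dag1 and Sgcb were the highest members and Dtna and Sntb1 the lowest in each list. Sgca, Sspn, Utrn and Sgcd lay between them, and their order changed between the replicates: Sspn stood below Utrn in replicate 1, at 26.3 and 27.1, and above Sgca in replicate 2, at 44.1 and 43.2. Utrn stood above Sgcd in replicate 1, at 27.1 and 22.0, and below it in replicate 2, at 32.9 and 34.7. Sgca stood above Utrn and Sgcd in both replicates.

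Acetylated length, the base pairs covered within 5 kb to each side of a start, ordered the genes differently. Its median over the members was 4149 bp in the replicated list (3569 bp and 4278 bp in replicates 1 and 2). The medians over all protein-coding genes, with or without a called start, were 1472, 1190 and 1470 bp. Every member had a called start. Among genes with one, the leading region had a median width of 2019, 1708 and 2013 bp. Dag1 (9048, 7867 and 8410 bp) and Sgca (8251, 6411 and 7828 bp) were longest in each list. Sgcb was shortest in each list, at 1698, 1515 and 1822 bp, although its signal value was second among the members. These lengths were also the widths of its region, below the median width for genes with a called start. Dtna had 5637 bp in the replicated list (3950 bp and 5457 bp in replicates 1 and 2), the widest relative gap between the replicates. Sgcd had 5028, 4467 and 5357 bp, Utrn 3269, 3188 and 3199 bp, Sspn 3244, 3114 and 3122 bp, and Sntb1 2859, 2674 and 2567 bp.

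**Figure D4:**
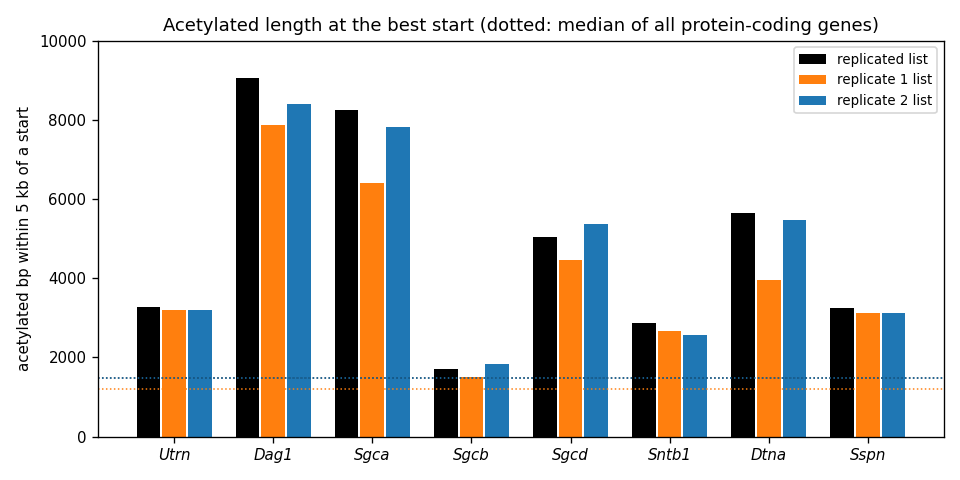
Acetylated base pairs within 5 kb to each side of the best start of each gene, as bars for the replicated list and the lists of replicates 1 and 2; dotted lines are the medians of all protein-coding genes in the same lists (1472, 1190 and 1470 bp). Every member stands above the line of its list, Sgcb by the least. All members had a called start, and the lines include genes without one.

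The leading region reached farther downstream than upstream of its start in 8 of 8 members in each list. Over all genes with a called start the share was 72.8% in the replicated list (73.1% and 72.4% in replicates 1 and 2). The count takes Sgca from start 1, and from start 2 it would be 7. The reach downstream ran from 1301 bp at Sgcb to 7858 bp at Dag1 in the replicated list. The median over genes with a called start was 1182 bp.

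Over the 8 genes and 50 kb to each side there were 176 regions in the replicated list (143 and 186 in replicates 1 and 2). Of the 176, 106 (60.2%) were shared with both replicates at 50% overlap of the shorter region, against 63.3% of all regions of the list. By place, 10 lay at a start of the gene, 6 at a start of another gene, 12 overlapped an exon, 96 lay in an intron and 52 in the flanks. Of the 108 in the bodies away from starts, 56 were shared with both replicates, 32 with replicate 2 alone, 5 with replicate 1 alone and 15 with neither. Replicate 2 also had the longer list over the whole genome.

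Other genes of the complex ranged from long acetylated starts to none. Of 15 such genes, 10 were called in the replicated list (9 and 9 in replicates 1 and 2), a share near the 61.2%, 58.9% and 61.2% of all protein-coding genes. Their median acetylated lengths were 1903, 1395 and 1937 bp, against the 1472, 1190 and 1470 bp of all genes. The longest was Plec, which encodes the linker plectin, at 10000 bp in the replicated list. Dmd, the X-linked dystrophin gene, had 4957 bp in the replicated list (3752 bp and 4740 bp in replicates 1 and 2). No region lay within 1 kb of a basic start of Sntg1, Sgcz, Nos1, Krt8 or Krt19. Nos1, which encodes the nitric oxide synthase that syntrophin anchors, did have a region of 28.1 in the replicated list (21.5 and 30.0 in replicates 1 and 2) at a start of the comprehensive set. Sntg2 was called in the replicated list, at 3.61, and in neither replicate.

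The enzymes that build the laminin-binding sugar of dystroglycan were all marked. In each of the 3 lists 17 of 17 were called, against 61.2%, 58.9% and 61.2% of all protein-coding genes, with median acetylated lengths of 2740 bp in the replicated list (1819 bp and 2514 bp in replicates 1 and 2). Gmppb, which makes the sugar donor GDP-mannose, was longest at 7212 bp, before B3galnt2 (6065 bp) and Dpm3 (5660 bp), in the replicated list. Of the extracellular partners of dystroglycan 9 of 10 were called in each list, against the same shares of all genes, with median lengths of 4621, 2970 and 4611 bp. Dcn, the small proteoglycan decorin, had 9644 bp, Hspg2, perlecan, 9440 bp and Lamc1, the laminin γ1 chain, 6150 bp. Dcn is also 1 of the fibroblast markers, all 4 of which were called in this whole tissue, and the part of fibroblasts in these lengths was not tested.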

How the data were processed

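The data were 4 peak lists on the mouse assembly mm10, read as the authors deposited them. Per the deposited descriptions, 1 list came from replicate 1, 1 from replicate 2, 1 from both pooled, and the replicated list from both replicates. Aligner, peak caller and thresholds were not given in the sources used here. For each peak the authors deposited a signal value, whose reference is not stated, the −log10 of its p-value and of its q-value, a summit position and an integer score, which was not used. Control libraries were not analysed here. No peak ran past a chromosome end of GRCm38, and no peaks of a list overlapped.

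Genes and starts came from GENCODE release M21, basic set, with coordinates counted from 1. Regions of at least 50% overlap of the shorter one counted as shared. Shares over all protein-coding genes or start clusters are descriptions: with 1 group no test between samples exists, and p-values are not given. The 8 genes, the 3 gene lists and the marker lists were chosen with earlier results of these data known. From each list the genes without a called start and the 3 of longest acetylated length were named, except for some genes not reported here, and Dmd, Nos1 and Sntg2 were added after their values were seen. Of 8 RefSeq promoter windows for 6 members, 4 matched a window used here and all 4 were identical in sequence. The overlap code was tested on simulated starts. Python 3.11.15, numpy 2.4.6 and pandas 2.3.3 were used. The replicate numbers mark pools of separate tissue samples.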

Additional observations from a re-analysis of the deposited data

How the results depend on the processing

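With basic starts, the leading start of Utrn, Sgcd and Sspn, the members in which it could differ, was the same in all lists. All 8 members were called in the replicated and pooled lists and without either replicate. They were called also with a −log10 q of at least 5, with windows of 500 and 2000 bp, with protein-coding transcripts only, and with comprehensive or RefSeq starts, the last 2 chosen after seeing the data. The exception was the rule that a summit lie within 1 kb, under which Sgcd dropped out and 7 remained. Of 68 alternative values for the main results 65 stayed within their limits and 3 moved. The limits were wide: 7 of 8 members called, and 73 shared regions against 106, both counted as within them. The pooled list had the same signal value as the replicated list at each member's leading start, so it is no separate check of these starts. Called start clusters went to 17 of 24 with RefSeq starts, where more starts are annotated. With comprehensive GENCODE starts they were 16 of 28 in the replicated list, 11 of 28 in replicate 1 and 16 of 28 in replicate 2. With basic starts they ranged from 9 to 11 when a replicate was left out. The median acetylated length was 2781 bp within 2000 bp of a start, where less sequence is counted, and ranged from 3569 to 4278 bp when a replicate was left out, 3569 bp being the list of replicate 1. Regions over the genes and flanks ranged from 143 to 186 without a replicate, and 9 of the other complex genes were called in each case. Regions shared with both replicates numbered 73 when 50% of both regions had to overlap and 107 with any overlap. Of 96 values for single members, 70 stayed and 26 moved, and the cause was not tested. No paired analysis was possible because there was 1 group. Depth is unknown, so a start without a region may carry acetylation below the reach of these lists, and replicate 1 has the shorter list.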
